A study of Mus musculus with 12 samples.

Results

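The mitochondrial ribosomal protein genes were taken as every gene name of the form Mrpl or Mrps followed by a number and at most 1 letter. The rule found 77 of the 35976 gene names in the deposited files, and all 77 passed the filter that chose genes for testing (1 FPKM or more in at least 2 libraries), which left 13316 genes. Total RNA was sequenced with a stranded kit in 12 libraries of mouse cells sorted after embryonic stem cell differentiation, with 2 biological replicates for each of 6 groups. These were hemogenic endothelial 1 (HE1), hemogenic endothelial 2 (HE2) and hematopoietic progenitor (HP) cells, each without doxycycline (NoDox) or after 18 hours in 0.5 µg/ml doxycycline (PlusDox). Every group, the NoDox groups included, came from A2lox.cre embryonic stem cells carrying a doxycycline inducible RUNX1-EVI1 construct, a fusion of the transcription factors RUNX1 and EVI1. Embryoid bodies were dispersed to purify FLK1+ cells, which were cultured with VEGF and IL-6 before doxycycline was added. Colonies of the targeted cells were picked individually, and how many clones were used is not stated in the sources at hand. The groups used here hold no doxycycline-treated cells without the construct, so the drug and the fusion cannot be told apart.

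Mitochondria keep their own ribosome, which makes the few proteins encoded by mitochondrial DNA, all of them core parts of the respiratory chain and ATP synthase. Its RNA comes from mitochondrial DNA, but its proteins are encoded in the nucleus, made in the cytosol and imported. Part of them have counterparts in the bacterial ribosome and the others were gained in the mitochondrial lineage. Doxycycline belongs to the tetracyclines, antibiotics that bind bacterial ribosomes and can also slow translation in mitochondria. Blood formation from endothelium is accompanied by proliferation, and the switch from endothelial to blood cells is known to involve changes in energy metabolism.

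By structure, 26 members belong to the small subunit, 16 of them with bacterial counterparts and 10 specific to mitochondria. The large subunit accounts for 50 members, 30 with bacterial counterparts and 20 specific to mitochondria, among them Mrps18a and Mrps30, which keep small subunit names but sit in the large subunit. The remaining member, Mrps36, bears the family name but is known as a subunit of the 2-oxoglutarate dehydrogenase complex of the citric acid cycle. None of the 77 names occurred more than once in a file.

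The sorted populations carried their labelled markers. The summed level of 10 hemogenic endothelium markers was 1292 to 1812 FPKM (fragments per length of transcript, relative to library size) in HE1, 659 to 1152 in HE2 and 113 to 256 in HP. The summed level of 10 hematopoietic progenitor markers was 57.5 to 190 FPKM in HE1, 1046 to 1315 in HE2 and 5002 to 8720 in HP. The sum of 6 mesenchyme and smooth muscle markers was 121 to 313 FPKM in HE1, 49.4 to 95.3 in HE2 and 30.5 to 86.0 in HP. It was highest in HE1 and overlapped between HE2 and HP. Within HE1 it was 121 and 204 FPKM without and 233 and 313 with doxycycline. The 4 pluripotency markers summed to at most 1.72 FPKM in any library, and the 4 cardiac markers to at most 7.46. Mecom, the mouse gene for EVI1, was at 17.0 and 28.3 FPKM in NoDox HE1 and at 22.98 and 18.1 in PlusDox HE1. It was at 6.08 and 13.9 FPKM in NoDox HE2 against 18.4 and 20.2 in PlusDox HE2. In HP it was at 0.194 and 0.205 FPKM in NoDox against 5.18 and 5.51 in PlusDox. The libraries with and without doxycycline thus overlapped in HE1 and were apart in HE2 and HP. In 5 libraries, Lars2, Mir6236 and LOC101056014 held 8.81 to 16.9% of the summed FPKM, against 0.355 to 0.591% in the other 7, which lowers every other FPKM value in the 5. The 5 are replicate 1 of NoDox HE1 and replicate 2 of NoDox HP, PlusDox HE1, PlusDox HE2 and PlusDox HP. The shares below therefore leave these 3 features out of the sum.

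All 77 members were present at 1 FPKM or more in each of the 12 libraries. Mean levels over the 12 libraries ran from 5.61 to 80.1 FPKM with a median over members of 29.9 FPKM, and 5 members were below 10 FPKM. Because FPKM is scaled by transcript length, these levels can be set side by side. The highest mean levels were those of Mrpl20 (80.1 FPKM), Mrpl12 (78.9) and Mrpl30 (75.0), all large subunit proteins with bacterial counterparts. Mrpl20 ran from 58.2 to 117 FPKM over the 12 libraries, and Mrpl30 from 55.2 to 102. The lowest were Mrps25 (5.61 FPKM), a small subunit protein specific to mitochondria, Mrpl19 (7.96) and Mrpl17 (7.98). Mrpl19 ran from 5.16 to 11.0 FPKM and Mrpl17 from 4.68 to 10.8. In each of the 12 libraries the 10 mitochondria-specific small subunit members had the lowest median level of the 4 structural groups (14.5 to 32.4 FPKM), and the 30 large subunit members with bacterial counterparts had the highest (24.7 to 51.5 FPKM). The summed level of the small subunit stood in a narrow ratio to that of the large subunit, between 0.434 and 0.478 in all 12 libraries.

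The genes are spread over 17 chromosomes, with 10 on chromosome 11 and 8 on chromosome 17 (mm10, GENCODE vM21 annotation). They are short, with a median span of 7894 bases against 23810.5 bases for the 11560 tested protein-coding genes. Of the 77, 33 (42.9%) had another protein-coding gene starting within 1000 bases on the opposite strand and running away from them, against 1918 of the 11560 (16.6%). Mrpl46 and Mrps11 were such partners of each other, and Mrps12 was paired with Sars2, the mitochondrial seryl-tRNA synthetase. Another gene on the same strand overlapped 4 members, among them Mrps6, which overlaps Slc5a3, and Mrps34, which overlaps Nme3. Fragments from such overlaps may be shared between the genes, since no source at hand states how the authors' counting treated strand and overlaps.

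Promoters are shown for the ribosomal member with the largest rise from HE1 to HP without doxycycline (Mrps22), the member that fell most with doxycycline (Mrpl12) and the pair that fell from HE1 to HP while the family rose (Mrps6 and Mrps18a). Each is the stretch before the gene start in RefSeq (GRCm38.p6, the patch release of mm10), cut where the GENCODE gene begins, read 5′ to 3′ on the strand of the gene, with capitals marking the letters CCGGAAG bound by ETS factors. Mrps22 lies on the minus strand with its promoter at chr9:98601680-98601929, and the other 3 lie on the plus strand, with promoters at chr11:120484387-120484612 (Mrpl12), chr16:92058086-92058269 (Mrps6) and chr17:46110754-46110985 (Mrps18a).
Mrps22: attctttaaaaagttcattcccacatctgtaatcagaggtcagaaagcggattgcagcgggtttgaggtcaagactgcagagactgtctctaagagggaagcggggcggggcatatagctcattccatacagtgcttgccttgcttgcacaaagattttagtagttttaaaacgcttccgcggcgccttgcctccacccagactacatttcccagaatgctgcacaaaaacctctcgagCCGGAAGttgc
Mrpl12: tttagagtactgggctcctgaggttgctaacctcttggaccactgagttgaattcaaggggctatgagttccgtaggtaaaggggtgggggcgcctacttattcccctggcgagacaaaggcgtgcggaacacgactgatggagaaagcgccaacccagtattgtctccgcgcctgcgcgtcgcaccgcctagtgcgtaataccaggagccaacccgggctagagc
Mrps6: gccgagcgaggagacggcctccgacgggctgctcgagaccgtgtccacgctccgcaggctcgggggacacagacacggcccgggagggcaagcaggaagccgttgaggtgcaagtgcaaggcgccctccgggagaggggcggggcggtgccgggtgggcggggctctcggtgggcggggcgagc
Mrps18a: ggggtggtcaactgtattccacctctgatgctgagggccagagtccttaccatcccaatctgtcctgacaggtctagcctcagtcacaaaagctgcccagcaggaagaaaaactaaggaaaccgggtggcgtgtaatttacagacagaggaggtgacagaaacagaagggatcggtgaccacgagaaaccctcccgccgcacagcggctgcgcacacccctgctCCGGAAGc

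ETS letters stand just before the start of Mrps22, which rose, and of Mrps18a, which fell, and none of the motifs searched is in the stretches of Mrpl12 and Mrps6. The 4 motifs were searched on both strands in the 300-base RefSeq window around the start (250 bases before, 50 after), which was at hand for 68 of the 77 members. CCGGAAG was in 25 of 68 windows (36.8%), against 20.2% of the 9683 tested genes with a window and 9.93% of all 27025 genes. ATGGCGG, the letters of YY1, was in 13 (19.1%, against 9.48% and 4.69%), and CATGCGC, the letters of NRF1, a factor of mitochondrial genes, in 8 (11.8%, against 7.91% and 4.41%). The E-box CACGTG, bound by MYC among others, was in 5 (7.35%, against 11.9% and 8.09%). Members with the ETS letters had a median log2 fold change from HE1 to HP without doxycycline of 0.59 and those without had 0.56. The medians with and without the letters were 0.40 and 0.60 for YY1, 0.45 and 0.59 for NRF1, and 0.67 and 0.56 for the E-box, and these differences were not tested.

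As a family, the members were lowest in HE1, higher in HE2 and highest in HP. Without doxycycline they took 0.475 and 0.495% of the summed FPKM in HE1, 0.577 and 0.559% in HE2 and 0.637 and 0.631% in HP. With doxycycline the shares were 0.453 and 0.443% in HE1, 0.502 and 0.510% in HE2 and 0.583 and 0.577% in HP. No libraries overlapped between populations within either arm. In bulk samples, fewer cells of a type and less RNA per cell cannot be told apart. The share was chosen as a measure after the data were seen and is given as a description.

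**Figure D1:**
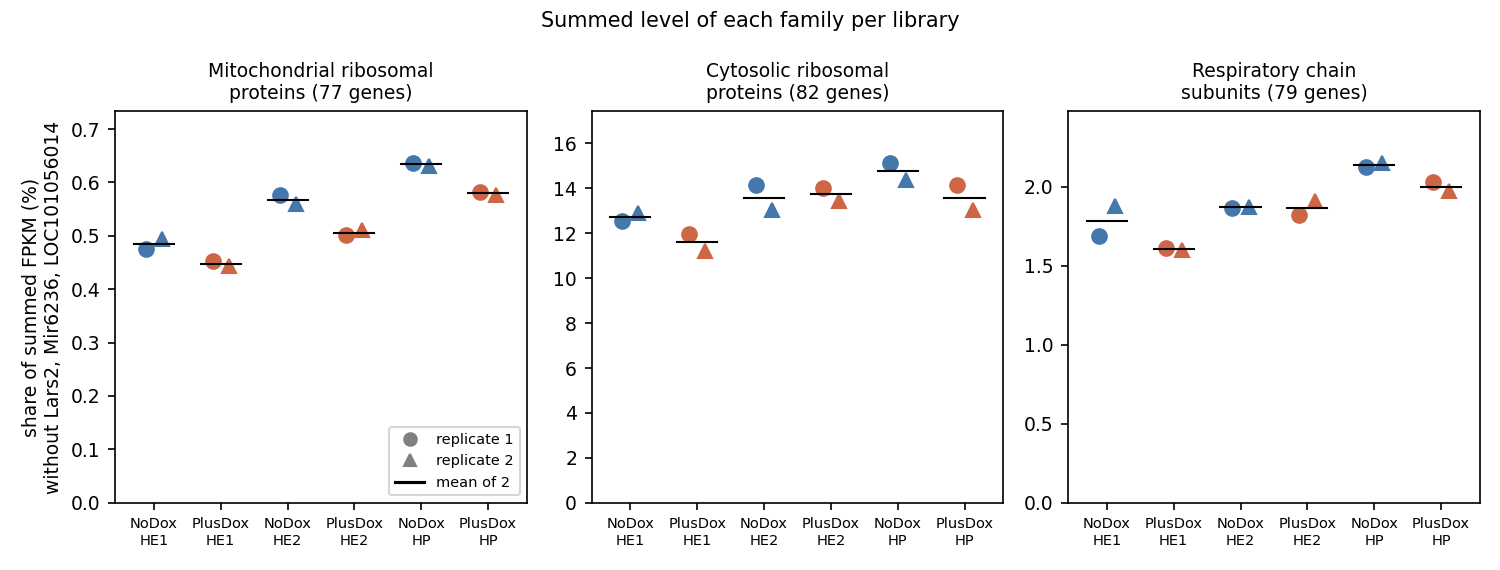
Share of the summed FPKM (vertical axis, %, without Lars2, Mir6236 and LOC101056014) taken by the 77 mitochondrial ribosomal protein genes, 82 cytosolic ribosomal protein genes and 79 nuclear-encoded respiratory chain subunits in each group (horizontal axis). Blue marks NoDox and orange PlusDox, circles replicate 1, triangles replicate 2 and black lines the mean of 2; the mitochondrial ribosomal share rises from HE1 to HP in both arms and is lower with doxycycline in each population.

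From HE1 to HP without doxycycline, 35 members rose and 2 fell (limma, Benjamini-Hochberg adjusted p below 0.05). Over all genes 40.6% were called in that comparison, 22% higher and 18.6% lower. The median log2 fold change was 0.54 over members and 0.14 over all genes, and 74 of 77 members had a fold above 0. Of 26 small subunit members 13 rose and 1 fell, and of 50 large subunit members 21 rose and 1 fell, with medians of 0.60 and 0.50. The changes were modest in size: the risers gained 0.53 to 1.29 on the log2 scale. The folds are on deposited FPKM, where the median of all genes itself shifted; scaled by the sum without the 3 features, the member median was 0.39 and that of all genes 0.0029, and 36 members rose and 2 fell.

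With doxycycline, 38 members rose and 2 fell from HE1 to HP, where 38.7% of all genes were called, 22.3% higher and 16.3% lower. The median log2 fold change was 0.55 over members and 0.18 over all genes. The small subunit had 15 of 26 members higher and 1 lower, and the large subunit 22 of 50 higher and 1 lower. The NoDox and PlusDox comparisons share no library, but both rest on the same spread per gene, pooled over all 12 libraries. The same 28 members rose and the same 2 fell in both, which is 81.1% of the 37 called without doxycycline and 75% of the 40 called with it, and 30 members were called in neither. This overlap was not counted over all genes, so it cannot be read as particular to the family. The number of calls rests on few libraries: without replicate 1 of NoDox HE1 it was 18 and without replicate 1 of NoDox HP 15 in place of 37, and without replicate 2 of PlusDox HE1 it was 14 and without replicate 1 of PlusDox HP 12 in place of 40. In the 7 libraries low in Lars2, which leave 1 residual degree of freedom, 6 and 1 members were called.

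**Figure D2:**
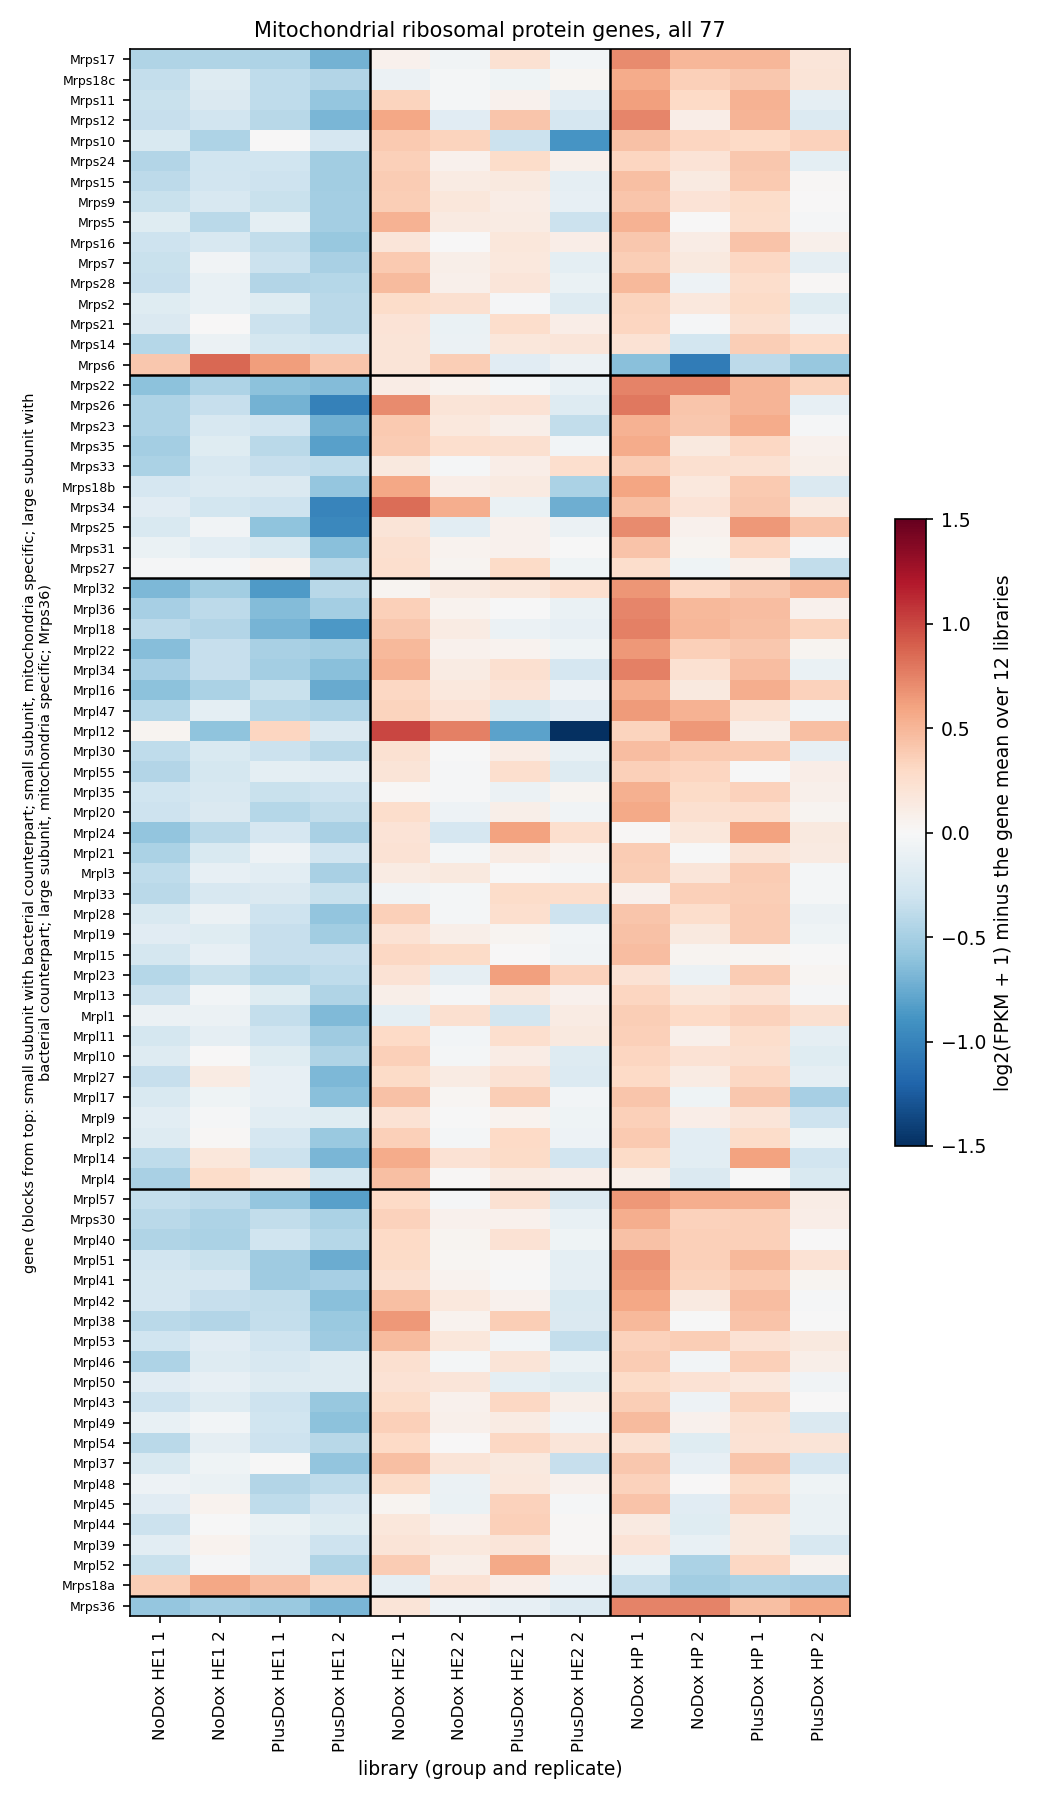
Level of each of the 77 members (rows) in the 12 libraries (columns, by population and then by doxycycline), as log2(FPKM + 1) minus the mean of that gene over the 12 libraries, from blue (lower) to red (higher); the colour scale ends at 1.5 on either side. Within each structural block the genes are ordered by their change from HE1 to HP without doxycycline; HE1 columns are mostly blue and HP columns mostly red, with Mrps6 and Mrps18a reversed and Mrpl12 deep blue in PlusDox HE2.

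The largest rises without doxycycline were those of Mrps36, Mrps22, Mrpl32 and Mrpl36. Mrps36, the dehydrogenase subunit, was at 12.7 and 13.5 FPKM in NoDox HE1, 22.6 and 18.5 in HE2 and 33.6 and 33.5 in HP. Its log2 fold change from HE1 to HP was 1.29 ± 0.17 (SE; limma, adjusted p = 7.17e-05), and with doxycycline 1.14 ± 0.17 (limma, adjusted p = 0.000205), from 12.9 and 11.8 to 27.2 and 30.0 FPKM. Mrps36 and Mrps22 were the 2 members called at each step without doxycycline, Mrps36 with 0.60 from HE1 to HE2 and 0.69 from HE2 to HP. Mrps22, a mitochondria-specific protein of the small subunit, was at 14.3 and 16.0 FPKM in NoDox HE1, 24.4 and 23.3 in HE2 and 38.3 and 38.4 in HP. Its log2 fold change from HE1 to HP was 1.29 ± 0.16 (limma, adjusted p = 5.15e-05). With doxycycline it was at 14.3 and 13.9 FPKM in HE1, 22.1 and 20.6 in HE2 and 32.4 and 28.5 in HP, a fold change of 1.05 from HE1 to HP. The replicates of either gene lay close together, and no population overlapped another.

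Mrpl32 and Mrpl36 are large subunit proteins with bacterial counterparts, and Mrpl32 is cut to its mature form inside mitochondria by the m-AAA protease. Mrpl32 was at 20.6 and 23.1 FPKM in NoDox HE1, 34.4 and 36.8 in HE2 and 53.6 and 41.7 in HP, a log2 fold change of 1.08 ± 0.19 from HE1 to HP (limma, adjusted p = 0.000793). With doxycycline it was at 18.2 and 24.8 FPKM in HE1, 37.7 and 40.2 in HE2 and 44.5 and 47.8 in HP, again a fold change of 1.08. Mrpl36, whose gene starts back to back with the complex I subunit gene Ndufs6, was at 24.1 and 26.1 FPKM in NoDox HE1, 44.6 and 35.9 in HE2 and 57.9 and 48.9 in HP (1.05 from HE1 to HP), and with doxycycline at 21.7 and 24.0, 34.3 and 32.2, and 48.1 and 36.2 FPKM. In either gene the 2 HE1 libraries were the lowest of each arm.

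With doxycycline the largest rises from HE1 to HP were those of Mrps25 and Mrpl18, ahead of Mrps36 and Mrpl32. Mrps25, the member with the lowest level, was at 3.15 and 2.22 FPKM in PlusDox HE1, 5.57 and 4.95 in HE2 and 8.85 and 7.37 in HP, a log2 fold change of 1.31 ± 0.25 (limma, adjusted p = 0.00131). Without doxycycline it was at 4.37 and 5.09 FPKM in HE1, 6.23 and 4.62 in HE2 and 9.31 and 5.57 in HP, a fold change of 0.53 that did not pass (adjusted p = 0.111). The folds of the 2 arms were not shown to differ: the difference of the doxycycline effects in HP and HE1 was 0.79 ± 0.35 (limma, adjusted p = 0.746). Mrpl18, a large subunit protein with a bacterial counterpart, was at 42.0 and 37.4 FPKM in PlusDox HE1, 64.7 and 63.1 in HE2 and 94.6 and 86.7 in HP (1.17 ± 0.17), and at 52.1 and 50.4, 91.5 and 75.1, and 117 and 97.7 FPKM in the same populations without doxycycline (1.05 ± 0.17). All HP libraries were above all HE1 libraries for Mrpl18 and Mrps25. Each call named here for the step from HE1 to HP stayed past the threshold in every fit that left out 1 library.

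Mrps6 and Mrps18a went against the family. Mrps6, the counterpart of a bacterial small subunit protein, was at 35.9 and 49.5 FPKM in NoDox HE1, 30.8 and 35.0 in HE2 and 17.0 and 12.5 in HP. It fell by 1.47 ± 0.21 on the log2 scale from HE1 to HP (limma, adjusted p = 0.000145) and by 1.12 of that from HE2 to HP. With doxycycline it was at 41.8 and 36.1 FPKM in HE1, 23.8 and 25.2 in HE2 and 20.2 and 17.8 in HP, and fell by 1.00 ± 0.21 (limma, adjusted p = 0.00251). Mrps6 spans chr16:92058270-92112227 on the plus strand, and Slc5a3, the sodium/myo-inositol cotransporter gene, lies within that span on the same strand. Slc5a3 was at 14.8 and 16.9 FPKM in NoDox HE1 and 3.46 and 2.01 in HP, and at 11.6 and 10.1 in PlusDox HE1 and 3.27 and 2.42 in HP. It fell by 2.20 and 1.63 in the 2 arms, and its part in the result for Mrps6 was not tested.

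Mrps18a has a gene of its own at chr17:46110986-46128910 on the plus strand, overlapped on the opposite strand by Rsph9. It was at 68.6 and 79.5 FPKM in NoDox HE1, 48.0 and 61.4 in HE2 and 41.1 and 36.6 in HP, and fell by 0.91 ± 0.18 on the log2 scale from HE1 to HP (limma, adjusted p = 0.00165). With doxycycline it was at 73.4 and 66.0 FPKM in HE1, 56.8 and 50.1 in HE2 and 37.8 and 37.2 in HP, and fell by 0.87 ± 0.18 (limma, adjusted p = 0.00226). HE1 and HP did not overlap in either arm. Mrps18a is 1 of 3 related genes whose proteins take different places in the ribosome, and its relatives Mrps18b and Mrps18c had folds of 0.60 (adjusted p = 0.104 by limma) and 0.74 (0.00375) in the same comparison without doxycycline.

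Fewer members passed the test at either single step than over the whole way from HE1 to HP. From HE1 to HE2 without doxycycline the median log2 fold change was 0.43 over members and 0.16 over all genes, 75 of 77 members were above 0 and 9 rose, with 10.1% of all genes called and 5.67% called higher. With doxycycline the median was 0.44 over members, and 6 members rose and 1 fell, against 8.59% of all genes called, 5.7% higher and 2.89% lower. From HE2 to HP the medians were 0.09 and 0.15; 3 members rose and 1 fell without doxycycline (16% of all genes called, 5.31% higher and 10.6% lower), and 3 rose with it (16.9%, 5.96% higher). By share of the summed FPKM, the mean without doxycycline was 0.485% in HE1, 0.568% in HE2 and 0.634% in HP, and with doxycycline 0.448%, 0.506% and 0.580%, so the larger rise in share was at the first step without doxycycline and at the second with it. Without Mrpl12, Mrps10 and Mrps34, which fell with doxycycline in HE2, this order was reversed in both arms. The PlusDox shares were then 0.425%, 0.495% and 0.553%, with the larger rise at the first step. The NoDox shares were 0.464%, 0.532% and 0.604%, with the slightly larger rise at the second. With all 12 libraries the member median was higher at the first step than at the second in both arms, on deposited FPKM and under each scaling tried. The counts at these steps rest on single libraries. The 9 calls of the first step became 0 without either replicate of NoDox HE1 or without replicate 1 of NoDox HE2, 6 without replicate 2 of NoDox HE2, and 5 without either replicate of NoDox HP. The 7 calls with doxycycline became 0 or 1 without any of the 4 PlusDox HE1 and HE2 libraries, and 3 to 5 without any of the 6 NoDox libraries. From HE2 to HP the 4 calls without doxycycline became 1 or 2 without any of the 4 libraries compared, and the 3 with doxycycline became 0 without replicate 2 of PlusDox HE2 or HP. Mrps6 was the named member whose call from HE2 to HP without doxycycline held in each of these fits.

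**Figure D3:**
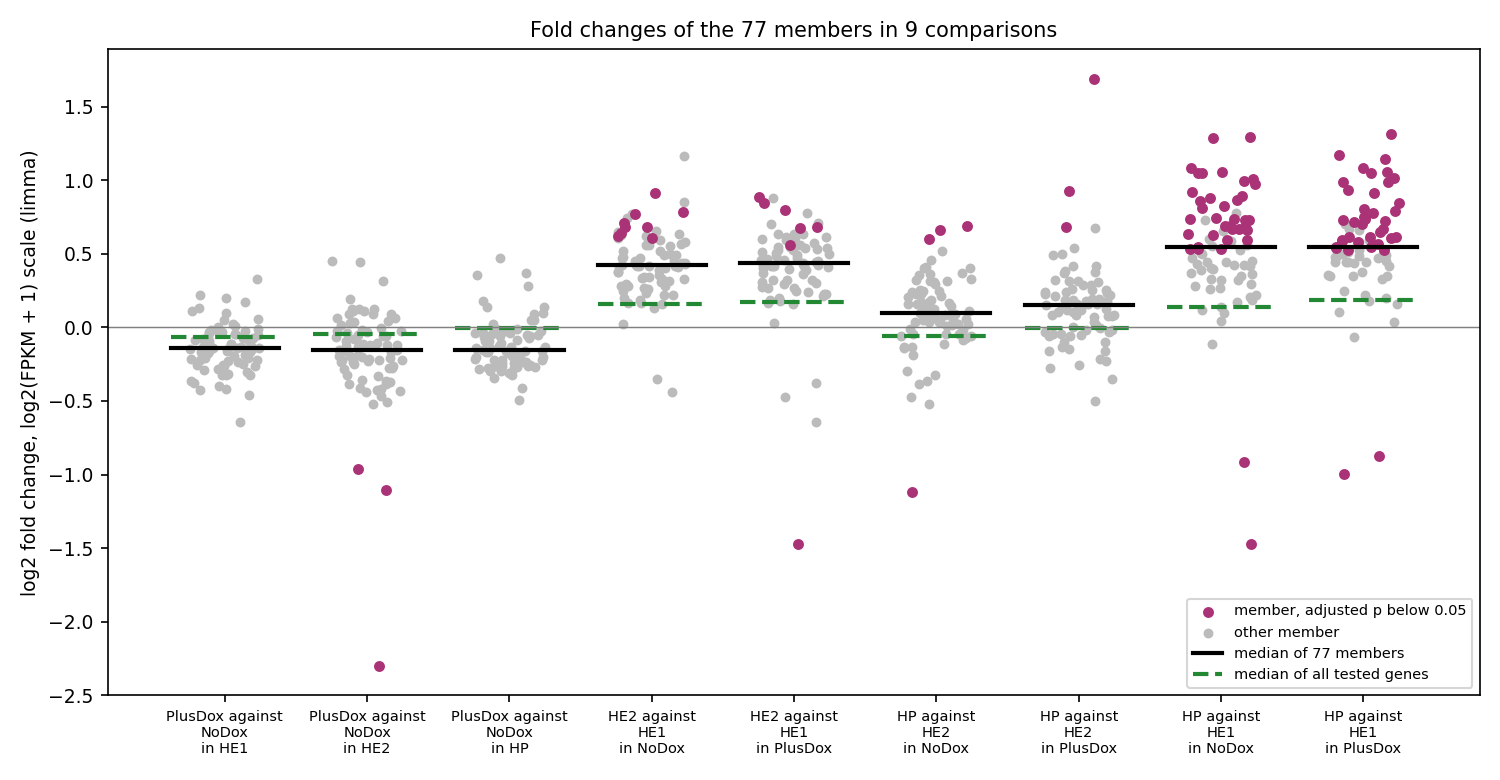
Log2 fold changes (vertical axis, log2(FPKM + 1) scale, limma) of the 77 members in 9 comparisons (horizontal axis), with members past an adjusted p of 0.05 in purple and the others in grey. Black lines are the member medians and dashed green lines the medians of all tested genes; the member medians lie at -0.14 to -0.16 with doxycycline and at 0.54 and 0.55 from HE1 to HP.

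At the first step without doxycycline the largest rises were those of Mrps34, Mrpl16, Mrpl22 and Mrps10. Mrpl16, a large subunit protein with a bacterial counterpart, was at 12.3 and 13.6 FPKM in NoDox HE1 and 24.4 and 21.8 in HE2 (0.79 ± 0.21; limma, adjusted p = 0.0357). Mrpl22, which lines the exit tunnel of the nascent chain, was at 36.4 and 45.0 FPKM in NoDox HE1 and 80.9 and 59.9 in HE2 (0.77 ± 0.21; limma, adjusted p = 0.0373). Both stayed high in HP, at 28.8 and 21.5 FPKM for Mrpl16 and 90.4 and 73.3 for Mrpl22. With doxycycline Mrpl16 was at 15.2 and 11.1, 22.6 and 18.4, and 28.8 and 24.8 FPKM in HE1, HE2 and HP, and Mrpl22 at 40.5 and 39.5, 59.2 and 54.7, and 76.3 and 59.0. HE1 was below HE2 for both genes in either arm. These calls were lost without either replicate of NoDox HE1 or replicate 1 of NoDox HE2 (adjusted p 0.106 to 0.329 by limma), and that of Mrpl16 also without replicate 2 of NoDox HE2 (0.061).

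With doxycycline the risers of the first step were led by Mrpl23, Mrpl32, Mrpl24 and Mrps17. Mrpl23, which sits near the exit of the tunnel, was at 31.2 and 32.3 FPKM in PlusDox HE1, 65.3 and 54.4 in HE2 and 55.7 and 43.2 in HP (0.89 ± 0.20 from HE1 to HE2; limma, adjusted p = 0.0172). Without doxycycline it was at 31.3 and 33.6 FPKM in HE1, 49.3 and 38.5 in HE2 and 49.4 and 39.9 in HP. Mrpl24 was at 22.7 and 19.2 FPKM in PlusDox HE1, 42.0 and 32.8 in HE2 and 42.0 and 30.2 in HP, and at 17.7 and 20.4, 31.7 and 22.8, and 27.5 and 30.7 in the same populations without doxycycline. Both have bacterial counterparts in the large subunit. In PlusDox the highest library of Mrpl23 was an HE2 library, while the highest HE2 and HP libraries of Mrpl24 were level at 42.0 FPKM. Mrps17, the counterpart of a bacterial small subunit protein, was at 23.4 and 23.4 FPKM in NoDox HE1, 33.8 and 31.0 in HE2 and 53.4 and 46.0 in HP, and at 23.2 and 19.4, 38.02 and 31.4, and 46.3 and 37.0 with doxycycline. It passed from HE2 to HP without doxycycline (0.60 ± 0.18; limma, adjusted p = 0.0461) and from HE1 to HE2 with it (0.68 ± 0.18; limma, adjusted p = 0.0420). Leaving out replicate 1 of PlusDox HE1 or HE2 ended the calls of all 4 genes at the first step with doxycycline (adjusted p 0.063 to 0.272 by limma), and that of Mrps17 from HE2 to HP was lost without any of the 4 NoDox HE2 and HP libraries (0.098 to 0.231).

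With doxycycline, no more than 3 members passed the test in any population. In HE1 and HP no member passed the test and 1 member in each had an unadjusted p below 0.05 (Mrps25 and Mrpl47, named after their values were seen). Over all genes 1.37% and 0.834% were called, and 9.59% and 9.39% had an unadjusted p below 0.05. In HE2, 3 members fell and none rose, where 6.06% of all genes were called and 2.24% called lower. The median log2 fold change of the 77 was -0.14 in HE1, -0.15 in HE2 and -0.16 in HP, against -0.07, -0.05 and -0.003 over all genes. A fold below 0 was found for 65, 59 and 65 of the 77 members. The median of all genes was also below 0, but by less than that of the members in each population. With each library scaled by its median, the counts of folds below 0 were 56, 53 and 65. In HE2, 1 PlusDox library and no NoDox library was high in Lars2. A fit with a term for the libraries high in Lars2 left the medians and counts of HE1 and HP unchanged. In HE2 that fit gave a median of -0.02 over members and 0.05 over all genes, with 45 members below 0. The largest folds short of the test were -0.65 for Mrps25 in HE1 (adjusted p = 0.361 by limma), -0.52 for Mrpl53 in HE2 (0.112) and -0.49 for Mrpl47 in HP (0.303). For no member did the difference between populations in the doxycycline effect pass the limma test: for HE2 minus HE1, HP minus HE2 and HP minus HE1, 0 members passed and 2, 4 and 1 had an unadjusted p below 0.05, with 0.0451, 0.015 and 0.0375% of all genes called.

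The members' share of the summed FPKM was lower with doxycycline in each population, and the libraries did not overlap. The mean share changed by -7.52% of its NoDox value in HE1, by -10.9% in HE2 and by -8.57% in HP. Without the 3 members that fell in HE2 the changes were -8.47%, -6.88% and -8.49%. Cytosolic ribosomal proteins changed by -8.98%, 1.07% and -7.90% by the same measure, and respiratory chain subunits by -9.98%, -0.16% and -6.54%. In HE1 and HP the other 2 families were lower by similar amounts, and in HE2 they were level while the mitochondrial ribosomal share was lower; this was not tested. Scaled in the same way, 38, 38 and 41 of the 77 members were lower in both PlusDox libraries than in both NoDox libraries in HE1, HE2 and HP, against 27.7, 30.1 and 22.6% of all tested genes. Replicates of a group differed in the share by 0.982 to 4.12% of their mean. On the log2 scale of deposited FPKM, the member medians of replicate 2 minus replicate 1 ran from -0.33 to -0.21 in 5 groups and stood at 0.14 in NoDox HE1, beside medians of -0.14 to -0.16 with doxycycline.

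Mrpl12, Mrps10 and Mrps34 were the members that fell with doxycycline in HE2. Mrpl12, at chr11:120484613-120489065 on the plus strand, is the counterpart of the bacterial stalk protein that recruits translation factors, and has also been described to bind the mitochondrial RNA polymerase. It was at 141 and 119 FPKM in NoDox HE2, the highest level of any group, and at 39.4 and 16.3 in PlusDox HE2, the lowest. It fell by 2.30 ± 0.36 on the log2 scale (limma, adjusted p = 0.0037). In HE1 it was at 71.8 and 45.5 FPKM without and 87.4 and 59.6 with doxycycline (0.33 ± 0.36; limma, adjusted p = 0.931), and in HP at 88.0 and 110.1 without and 74.0 and 95.8 with it (-0.22 ± 0.36; limma, adjusted p = 0.985). The groups overlapped in HE1 and HP and were far apart in HE2. The effect in HE2 minus that in HE1 was -2.63 ± 0.51 and did not pass over all genes (limma, adjusted p = 0.129), and the effect in HP minus that in HE2 was 2.08 ± 0.51 (limma, adjusted p = 0.353). With doxycycline Mrpl12 fell by 1.47 from HE1 to HE2 and rose by 1.69 from HE2 to HP, calls that share that group with the comparison above. The first of these was lost without either replicate of PlusDox HE1 or replicate 2 of PlusDox HE2 (adjusted p 0.053 to 0.149 by limma), and the second without replicate 2 of PlusDox HE2 or HP (0.057 and 0.056). Among all 77, Mrpl12 also differed most between replicates, by a mean of 0.558 on the log2 scale over the 6 groups.

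Mrps10, at chr17:47368887-47381417 on the plus strand, is the counterpart of a bacterial small subunit protein. It was at 27.6 and 26.3 FPKM in NoDox HE2 and 16.4 and 10.8 in PlusDox HE2, and fell by 0.96 ± 0.20 (limma, adjusted p = 0.0178). In HE1 it was at 17.6 and 14.8 without and 20.8 and 17.2 with doxycycline, and in HP at 28.4 and 26.3 without and 25.8 and 26.6 with it. Mrps34, at chr17:24895116-24897502 on the plus strand, is a mitochondria-specific small subunit protein known to be needed for the stability of the small subunit. It was at 38.6 and 31.2 FPKM in NoDox HE2 and 19.7 and 12.3 in PlusDox HE2, and fell by 1.11 ± 0.26 (limma, adjusted p = 0.0317). In HE1 it was at 18.6 and 17.3 without and 16.9 and 10.1 with doxycycline, and in HP at 29.3 and 24.4 without and 28.3 and 22.98 with it. Both genes were apart in HE2, and in NoDox both had risen from HE1 to HE2 (0.71 and 0.92), a step that shares the NoDox HE2 libraries and whose calls were lost without any of the 4 NoDox HE1 and HE2 libraries (adjusted p 0.060 to 0.311 by limma). Nme3, which overlaps Mrps34 on the same strand, was at 10.4 and 7.37 FPKM in NoDox HE2 and 7.90 and 7.45 in PlusDox HE2.

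**Figure D4:**
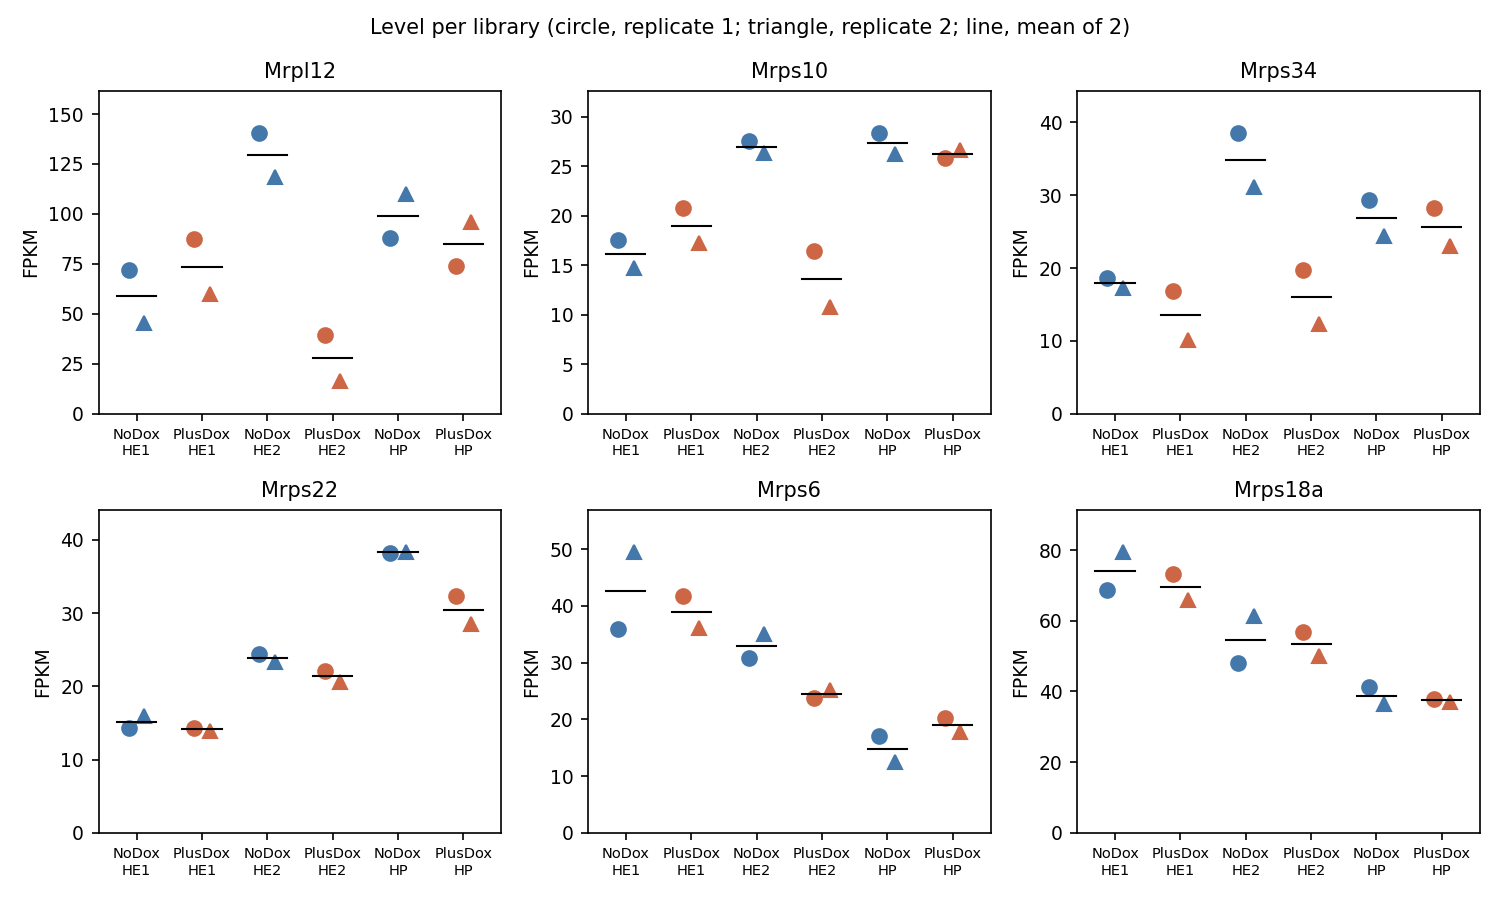
Level in FPKM (vertical axes, from 0) of Mrpl12, Mrps10, Mrps34, Mrps22, Mrps6 and Mrps18a in each library by group (horizontal axes); blue marks NoDox, orange PlusDox, circles replicate 1, triangles replicate 2 and lines the mean of 2. The upper 3 genes are lowest or near lowest in PlusDox HE2, Mrps22 rises from HE1 to HP, and Mrps6 and Mrps18a fall.

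Of these 3 falls, that of Mrpl12 passed in every fit that left out 1 library. The call of Mrps10 was lost without replicate 1 of NoDox HE2 (adjusted p = 0.129 by limma), replicate 2 of NoDox HE2 (0.050) or replicate 2 of PlusDox HE2 (0.187), and that of Mrps34 without replicate 1 of NoDox HE2 (0.229) or replicate 2 of PlusDox HE2 (0.270), with Mrps34 also lost when no filter on low values was used (0.10). In the 7 libraries low in Lars2 none of the 3 passed, at -1.69, -0.68 and -0.79. Markers moved in the same comparison, where 3 of 10 hematopoietic progenitor markers and 2 of 10 hemogenic endothelium markers were higher in PlusDox HE2. Lower were 1 of 5 tested mesenchyme and smooth muscle markers and 1 of 3 tested cardiac markers. The summed hematopoietic markers overlapped, at 1079 to 1315 FPKM without and 1046 to 1150 with doxycycline. The summed hemogenic endothelium markers were apart, at 659 and 1034 FPKM without and 1149 and 1152 with it. The part of the markers in the result was not tested.

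Among the wider set of genes for mitochondrial gene expression, called genes were also few with doxycycline. Over 6 lists with 102 tested genes, the calls in the 3 doxycycline comparisons were Myc and C1qbp, both lower in HE2, which is 1.96% of the 102 against 6.06% of all genes in that comparison. Myc, a transcription factor known to drive ribosome and mitochondrial genes, was at 29.9 and 23.6 FPKM in NoDox HE2 and 11.3 and 9.53 in PlusDox HE2, and fell by 1.27 ± 0.22 (limma, adjusted p = 0.00636). C1qbp, a matrix protein needed for mitochondrial translation, was at 170 and 157 FPKM in NoDox HE2 and 79.3 and 45.2 in PlusDox HE2, and fell by 1.43 ± 0.31 (limma, adjusted p = 0.0194). Both were apart between the arms in HE2. Without replicate 1 of NoDox HE2 or replicate 2 of PlusDox HE2 neither passed (adjusted p 0.061 to 0.180 by limma). None of the 16 translation factors, 20 mitochondrial tRNA synthetases, 17 genes of mitochondrial transcription and DNA, or 6 ribosomal subunits with other names was called with doxycycline, where 1, 12 and 0 of these 59 genes had an unadjusted p below 0.05 in HE1, HE2 and HP. The 12 in HE2 are 20.3% of the 59, close to the 22.3% of all genes. None of the 13 protein-coding transcripts of mitochondrial DNA was called, and 0 had an unadjusted p below 0.05 in any population.

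From HE1 to HP, where 22% of all genes were called higher without and 22.3% with doxycycline, these lists had 25 to 43.8% and 16.7 to 50% of their genes called higher. Without doxycycline 11 of 31 ribosome assembly and RNA modification genes rose, with a median log2 fold change of 0.54, as did 7 of 16 translation factors (0.45), 6 of 20 tRNA synthetases (0.57), 5 of 17 transcription and DNA genes with 1 lower (0.48), 2 of 6 subunits with other names (0.51) and 3 of 12 regulators (0.33), or 35.5, 43.8, 30, 29.4, 33.3 and 25% of each list. With doxycycline 10, 7, 10, 7, 2 and 2 genes of these lists rose and none fell. Of 79 respiratory chain subunits 25 rose without and 30 with doxycycline, with medians of 0.41 and 0.49. Of 82 cytosolic ribosomal proteins 4 rose in either arm (4.88%, below the share of all genes), with medians of 0.37 and 0.40, and 82 and 79 had a fold above 0. The medians of all these lists lie above those of all genes (0.14 and 0.18).

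Over the members, replicates differed from each other more by a common shift than gene by gene. Over all genes this did not hold in every group. In NoDox HE2 the median shift of all genes was 0.029 on the log2 scale, against -0.26 for members. In 5 of the 6 groups most members were lower in replicate 2, 66 to 72 of 77, and in NoDox HE1 15 were. After the median shift of each group was taken out, the median absolute difference between replicates was 0.080 to 0.136 on the log2 scale over members and 0.158 to 0.242 over all genes. The median level per library was 20.9 to 41.1 FPKM over members and 7.85 to 10.3 over tested genes. Genes of like level were not compared, so the smaller spread cannot be read as particular to the family. The largest mean differences between replicates after that of Mrpl12 were those of Mrpl14 (0.529) and Mrps12 (0.512). Mrpl14, which lies at the interface of the subunits, was at 18.2 and 27.2 FPKM in NoDox HE1, 35.9 and 28.1 in HE2 and 29.7 and 21.4 in HP, and at 19.0 and 14.6, 29.6 and 19.6, and 37.1 and 19.5 with doxycycline. Mrps12, the counterpart of a bacterial protein at the decoding centre, was at 17.8 and 18.6 FPKM in NoDox HE1, 34.8 and 20.3 in HE2 and 38.7 and 24.6 in HP, and at 16.8 and 13.9, 30.9 and 19.1, and 32.9 and 19.7 with doxycycline. The HE2 and HP libraries of both genes overlapped in either arm, and neither was called in any comparison. Over the 12 comparisons, 48 members were called at least in 1 and 29 in none.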

How the data were processed

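Gene expression was measured in 12 stranded total RNA libraries, 2 in each of 6 groups. Trimmomatic 0.32, HISAT2 2.1.0 and StringTie 1.3.3 and the build mm10 are named in the submitters' processing notes, and no source at hand gives the annotation or strand setting. Deposited values, 1 per gene name and without a header, were read as FPKM made by the authors, from the tool named and because they were not whole numbers and their sums differed between libraries (468326 to 579055). The files hold no counts, so the depth is unknown.

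Values of 2 to 4 repeated names per file were added. Genes at 1 FPKM or more in at least 2 libraries (13316) were tested on log2(FPKM + 1), a scale that understates changes of low genes. limma 3.58.1 (R 4.3.3) was fitted with 6 group means and a trend, leaving 6 residual degrees of freedom, and was tested on simulated data. Each of 12 comparisons was adjusted by Benjamini-Hochberg over all genes, two-sided, with calls at an adjusted p below 0.05. P-values measure the spread between replicates, which the labels describe no further, pooled over groups. Python 3.11.15 with pandas 2.3.3 and matplotlib 3.10.9 made the other tables and plots.

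Members given with values were those called in a doxycycline comparison or a difference of these, up to 4 called rises and 4 falls in each comparison of populations, and the 3 highest, 3 lowest and 3 most variable between replicates. The members, lists and tests were chosen with earlier results of these data known, and nothing here is independent support for them. Scaling without Lars2, Mir6236 and LOC101056014 was added after seeing the data. Coordinates are those of GENCODE vM21 and promoters those of RefSeq, both on mm10; all 77 symbols matched the RefSeq gene table and 68 its promoter table.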

Additional observations from a re-analysis of the deposited data

How the results depend on the processing

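Among the member calls chosen by the naming rule above, none changed direction in any alternative run. The direction of the other calls was not checked in these runs. With all libraries, the 3 falls in HE2 with doxycycline became 5 calls on scaling without Lars2, Mir6236 and LOC101056014 (chosen after seeing the data; Mrpl53 lower and Mrpl23 higher were added) and 0 in the 7 libraries low in Lars2. For HE2 against HE1 without doxycycline the 9 calls became 3 with no filter on low values, 17 with quantile normalization, 16 with a term for the library class by Lars2 and 0 in the 7 libraries. With doxycycline the 7 became 4, 23, 32 and 0 under the same alternatives, 14 with median scaling and 11 with the 3 features left out. For HP against HE2 the 4 calls without doxycycline became 13 with quantile normalization, 14 with median scaling, 12 without the 3 features and 0 in the 7 libraries, and the 3 with doxycycline became 11, 11, 11 and 0, and 8 with the class term. For HP against HE1 the class term gave 56 and 63 calls in place of 37 and 40, and the 7 libraries gave 6 and 1. The 7 libraries leave fewer samples and 1 residual degree of freedom; the cause of the other changes was not tested. A pseudocount of 0.1 moved no count by over 1.5 times.

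Leaving out 1 library at a time gave 0 to 0 calls with doxycycline in HE1, 1 to 3 in HE2 and 0 to 0 in HP, and 0 to 1, 0 to 0 and 0 to 0 for the differences HE2 minus HE1, HP minus HE2 and HP minus HE1. It gave 0 to 9 and 0 to 7 calls for HE2 against HE1 without and with doxycycline, 1 to 4 and 0 to 4 for HP against HE2, and 15 to 38 and 12 to 47 for HP against HE1; where 1 library was left in a group, it is assumed to vary like the others.

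Replicate numbers are shared by the groups. Differences between replicates correlated between groups at -0.1 to 0.526, above 0.1 in 12 of 15 pairs of groups. The other 3 all include NoDox HE1, the only group where replicate 1 was the library high in Lars2. In NoDox HP and each PlusDox group the high library was replicate 2, so replicate number and library class largely coincide. The part of the class in these correlations and in the replicate block was not tested. Since not every pair was above 0.1, and the labels tie the numbers to no shared culture or day, the numbers were not taken to pair the samples. With the replicate block, 1 member (Mrpl12, -2.63, limma adjusted p = 0.0238) passed for HE2 minus HE1 in place of 0, 29 and 27 passed for HE2 against HE1 without and with doxycycline, and 8 for HP against HE2 with doxycycline. The files used here hold no counts, so what depth limits cannot be given.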
